A study of Mus musculus with 6 samples.

Results

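The granins and the enzymes that process prohormones were followed through the cells of the mouse olfactory bulb. The set holds 10 genes, chosen by name (Scg2, Chga, Chgb, Scg3, Scg5, Pcsk1, Pcsk2, Pcsk1n, Cpe and Ptprn), and all 10 were found among the 18560 genes of the count table. Single cells were captured in droplets from the bulbs of C57BL/6NJ mice that were 14 weeks old, and each transcript carried a unique molecular identifier (UMI), so that counts are of molecules. There were 2 libraries per condition: control, for which the labels name no manipulation, naris occluded, in which 1 nostril had been closed for 6 weeks, and olfactory trained, in which mice had learned to discriminate odorants for 6 weeks. Trained mice were water deprived and worked for water, which cannot be told apart from training here. Each library was a pool of 3 mice, of males for replicate 1 and of females for replicate 2, so the spread between the replicates of a condition also holds a difference of sex, and p-values measure the spread between pools.

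Neurons and endocrine cells store peptides in dense-core vesicles. Granins are acidic proteins that aggregate in the trans-Golgi network and help to form these vesicles, and several are themselves cut into peptides. Scg2 (secretogranin II) is the precursor of secretoneurin, Chga and Chgb are the chromogranins, and Scg3 binds Chga and the vesicle membrane. Scg5 is a chaperone of the convertase made by Pcsk2, Pcsk1n encodes proSAAS, an inhibitor of the convertase made by Pcsk1, and both convertases cut prohormones at pairs of basic residues. Cpe, carboxypeptidase E, then trims the basic residues left at the cut, and Ptprn encodes a transmembrane protein of the vesicle. In many neurons Scg2 and other genes of this set are known as genes that respond to activity through cyclic AMP response elements (CRE), and in the bulb the sensory drive that occlusion removes reaches mitral and tufted cells and many periglomerular cells directly, and granule cells through mitral and tufted cells.

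Promoter windows of 9 of the 10 genes were found in the RefSeq table for GRCm38.p6 (10 windows, 2 of them of Ptprn), each running from 250 bases before an annotated start to 50 bases after it. Cpe had no entry. The genes themselves lie at chr1:79434366-79440026 (Scg2), chr12:102554941-102565027 (Chga), chr2:132781642-132795079 (Chgb), chr9:75643366-75685959 (Scg3), chr2:113776313-113829091 (Scg5), chr13:75089420-75134861 (Pcsk1), chr2:143546133-143816284 (Pcsk2), chrX:7919822-7924410 (Pcsk1n), chr8:64592542-64693109 (Cpe) and chr1:75247035-75264497 (Ptprn). The CRE, TGACGTCA, was searched on both strands, and it was present in the windows of Scg2, Chgb and Pcsk1, 3 of the 9 genes, while 1.79% of all 32851 windows held it. Its half-site, TGACG, which also lies inside the full element, was in windows of 8 of the 9 genes against 20.8% of all windows, and the AP-1 motif TGANTCA was in that of Pcsk1n alone against 7.81%. The windows with the full element are shown because Scg2 is the gene on which the comparison of occlusion turns, and that of Chga is shown as a granin with a half-site only. Sequences run 5′ to 3′ on the strand of the gene, with the element in capitals, at chr1:79439977-79440276 (minus strand) for Scg2, chr2:132781392-132781691 (plus) for Chgb, chr13:75089607-75089906 (plus) for Pcsk1 and chr12:102554691-102554990 (plus) for Chga.
Scg2: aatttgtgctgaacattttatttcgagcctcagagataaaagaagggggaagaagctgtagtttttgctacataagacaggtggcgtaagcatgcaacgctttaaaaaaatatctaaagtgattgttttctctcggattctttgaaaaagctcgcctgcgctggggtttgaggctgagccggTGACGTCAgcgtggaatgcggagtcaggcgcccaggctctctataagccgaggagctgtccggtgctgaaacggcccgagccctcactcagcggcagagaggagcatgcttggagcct
Chgb: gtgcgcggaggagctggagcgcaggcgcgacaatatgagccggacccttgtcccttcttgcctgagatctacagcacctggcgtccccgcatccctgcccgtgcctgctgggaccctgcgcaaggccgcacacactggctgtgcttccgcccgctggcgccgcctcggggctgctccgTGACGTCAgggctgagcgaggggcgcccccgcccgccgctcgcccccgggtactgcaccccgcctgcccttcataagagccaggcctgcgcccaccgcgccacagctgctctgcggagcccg
Pcsk1: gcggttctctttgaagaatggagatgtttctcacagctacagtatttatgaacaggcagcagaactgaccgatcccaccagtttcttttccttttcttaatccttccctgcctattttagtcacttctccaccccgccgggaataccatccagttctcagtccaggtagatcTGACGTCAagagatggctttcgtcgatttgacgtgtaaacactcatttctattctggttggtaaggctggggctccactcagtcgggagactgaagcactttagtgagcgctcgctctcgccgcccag
Chga: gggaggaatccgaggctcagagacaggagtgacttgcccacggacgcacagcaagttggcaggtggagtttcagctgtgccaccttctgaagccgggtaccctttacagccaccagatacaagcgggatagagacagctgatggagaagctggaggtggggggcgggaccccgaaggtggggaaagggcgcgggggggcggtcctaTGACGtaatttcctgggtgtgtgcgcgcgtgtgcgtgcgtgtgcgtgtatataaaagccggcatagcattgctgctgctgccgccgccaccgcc
The element began 68 bases before the start in Scg2, 72 in Chgb and 78 in Pcsk1, and the half-site of Chga began 44 bases before it. The start used for Pcsk1 lies downstream of the first base of the gene as placed above. A match describes these letters and does not show that a factor binds there.

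The libraries held 6705 to 10570 cells with a cluster, 11841160 to 17065083 UMIs in all and 2777 to 5056 neurons, at a median of 1028 to 1723.5 UMIs per cell. The authors' clusters were used, 18 of neurons and 22 of other cells. The sums of the mitral and tufted markers lay between 5116 and 6705 CPM (a gene's UMIs scaled to 1e+06 UMIs) in n17-M/TC-3, and those of the inhibitory markers between 2036 and 3860 CPM in n18-EPL-IN, as the names have it. Sequences of 1461 barcodes occurred in more than 1 library, in 2956 cells. The Y-linked genes and Xist fell with the sex given for each pool.

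In neurons the set was most abundant in 2 clusters. External plexiform layer interneurons, n18-EPL-IN (161 cells), had the highest mean of 7 of the 10 genes, and mitral and tufted cells of n17-M/TC-3 (927 cells) had the highest mean of the other 3, Scg2, Chgb and Cpe. All levels are CPM over the UMIs of a cluster in a library, as mean ± SD over the 6 libraries, and since clusters were made from the same counts they are a description without a test. The heat map of levels by cluster shows these 2 bright columns and weaker ones. Among the weaker are the mitral and tufted cells n16-M/TC-2 and the granule cells n07-GC-2 and n14-GC-7.

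**Figure D1:**
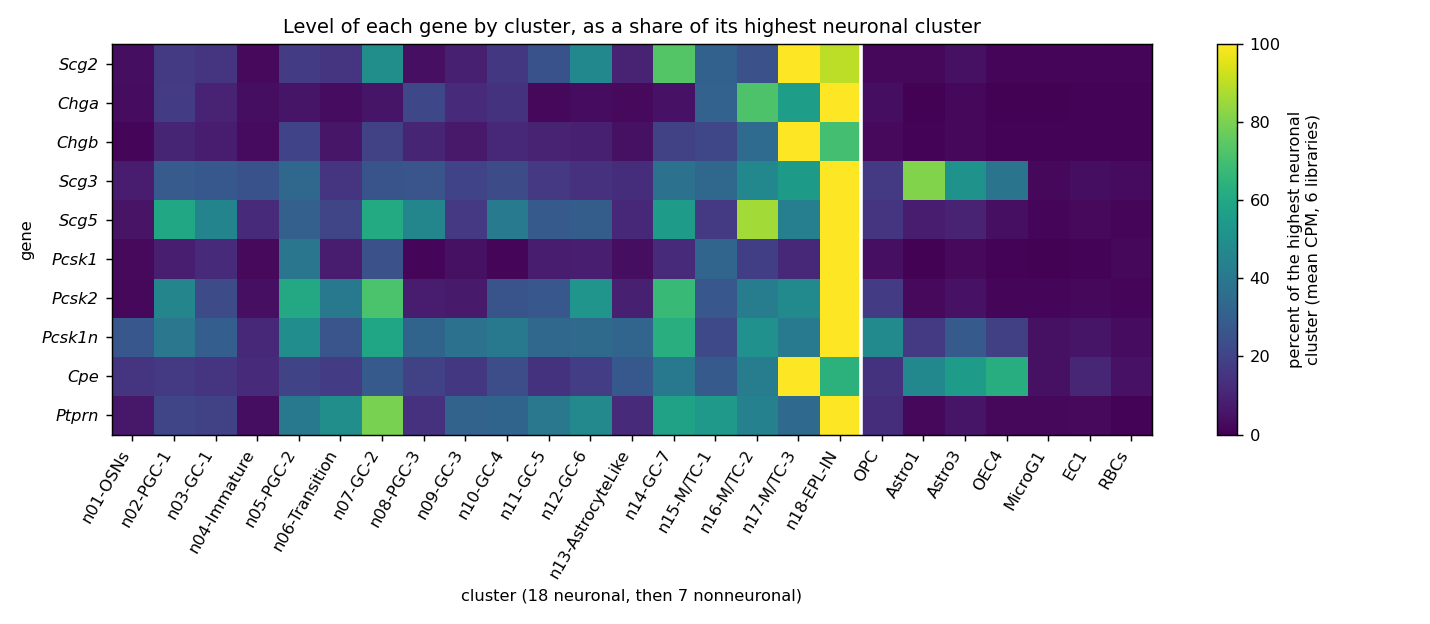
Mean level of each gene (rows) in the 18 neuronal clusters and in 7 nonneuronal clusters (columns, right of the white line), as a percentage of its highest neuronal mean in CPM over 6 libraries. The columns n17-M/TC-3 and n18-EPL-IN hold the 100% cells of all 10 genes, while Scg3 is also bright in Astro1, and Cpe in OEC4, Astro3 and Astro1.

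Among the granins, Scg2 stood at 1836 ± 637 CPM in n17 and 1655 ± 567 in n18, a difference smaller than either SD, followed by n14-GC-7 at 1341 ± 223 and n07-GC-2 at 908 ± 113. Its lowest neuronal level was in immature neurons, n04-Immature, at 47.3 ± 12.1 CPM. Chgb was ordered alike at the top, with 1960 ± 385 CPM in n17 and 1371 ± 419 in n18, and lowest in sensory neurons, n01-OSNs, at 26.2 ± 5.16 CPM. Chga had another pattern. It was highest in n18 at 1110 ± 388 CPM and in the mitral and tufted clusters n16-M/TC-2 at 799 ± 143 and n17 at 618 ± 88.5, but in the granule cells n07-GC-2, where Scg2 was high, it stood at 61.4 ± 10.9 and in n11-GC-5 at its lowest, 25.1 ± 6.58 CPM. Scg3 reached 428 ± 98.1 CPM in n18, above n17 at 234 ± 24.4 by more than either SD, and was lowest in n01-OSNs at 34.7 ± 12.4 CPM.

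Scg5 was highest in n18 at 1185 ± 222 CPM and in n16-M/TC-2 at 1021 ± 261, which do not differ beyond their spread, and stood at 512 ± 66.8 in n17. The convertase Pcsk2 was highest in n18 at 312 ± 192 CPM and then in n07-GC-2 at 224 ± 29.0, n14-GC-7 at 212 ± 47.1 and n05-PGC-2, the periglomerular cells that hold Th, at 189 ± 33.4, with none of these steps larger than the SD. Pcsk1 was rare, with 382 UMIs in all cells. Its level was 102 ± 72.1 CPM in n18 and 40.0 ± 19.3 in n05-PGC-2, and 11.6 ± 10.6 in n17. Pcsk1n was highest in n18 at 3946 ± 589 CPM, above n14-GC-7 at 2494 ± 168 by more than either SD, and lowest in n04-Immature at 456 ± 48.5. Cpe was highest in n17 at 3308 ± 610 CPM, above n18 at 2130 ± 491. Ptprn stood at 684 ± 143 CPM in n18 and 546 ± 35.6 in n07-GC-2, and at 234 ± 37.1 in n17.

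The processing genes were not all neuronal. Cpe stood at 2062 ± 91.3 CPM in the ensheathing cells OEC4, 1816 ± 183 in Astro3 and 1548 ± 193 in Astro1, so only 2 neuronal clusters exceeded every nonneuronal one. Scg3 stood at 347 ± 32.5 CPM in Astro1, which 1 neuronal cluster, n18, exceeded. Pcsk1n reached 1893 ± 152 CPM in oligodendrocyte precursors (OPC), and 5 neuronal clusters were higher. Chgb was above every nonneuronal cluster in 17 neuronal clusters, and Scg2 and Ptprn in 15. RNA free in the suspension gives every cell some UMIs of abundant genes. In red blood cells, microglia and endothelial cells, 6 clusters used as its measure, Scg2 lay between 22.8 and 99.2 CPM, Chga between 8.0 and 19.1, Pcsk1n between 136 and 538 and Cpe between 148 and 780. The level of Scg2 in n04, n01 and n08-PGC-3 (78.5 ± 46.8 CPM) lies within that range and is not read as expression, and for Cpe only 8 neuronal clusters were above it.

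Over the means of the 18 neuronal clusters, on the scale log2(CPM + 10), members correlated with each other from r = 0.32 (Chga with Pcsk2) to r = 0.88 (Scg2 with Pcsk2). Chga had the 5 lowest values of the 45 pairs, and its partner nearest in pattern was Scg3 (r = 0.81). Over 10677 genes with at least 20 CPM in a cluster, the genes most like Scg2 were Cntn1 (r = 0.91), Cds2 and Fut9. Those most like Chga were Scn2b (r = 0.93), Cntn2 and P2rx4, and those most like Chgb were Ctsb (r = 0.96), Atp6v0a1 and Tmx2. For Scg3 they were Pigt (r = 0.95), Pcyox1 and Stt3a, and for Scg5 Tmem222 (r = 0.94), Nrsn2 and Ormdl3. For Pcsk2 they were Fam20c (r = 0.97), Tex264 and Cds2, for Pcsk1 Serping1 (r = 0.88), Abcg4 and Kcnc2, and for Pcsk1n Fam174a (r = 0.89), Kcnk1 and Lrrc24. Cpe was most like Clstn3 (r = 0.91), Lamp1 and Psap, and Ptprn most like Rasgrf1 (r = 0.91), Atg9a and Grin1. These are correlations over 18 points that share libraries and depth, and are given as a description.

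Adult-born neurons were placed by the study on 2 axes that lead from n04-Immature to mature granule and periglomerular cells, axis A with 8 clusters and axis B with 3 (n06, n07 and n09). On both axes 9 of the 10 genes were higher than in n04, and Scg3 was not. In n04 itself Scg2, Ptprn, Pcsk1n, Cpe and Pcsk1 were at levels within the range of free RNA, so the ratios of these genes to n04 compare a level on the axis with one not read as expression, and they are no measure of how many times expression was higher. The log2 ratio of CPM + 1 to n04 is given on those terms. For Ptprn it was 3.12 ± 0.34 on A and 4.21 ± 0.42 on B (SD, n = 6 libraries), for Scg2 3.14 ± 0.24 and 3.80 ± 0.27, and for Pcsk2, at 12.4 ± 4.49 CPM in n04 beside free RNA of up to 11.1, 3.13 ± 0.59 and 3.85 ± 0.70. Cpe had 0.53 ± 0.17 and 0.98 ± 0.20, and Scg3 -0.09 ± 0.09 and -0.20 ± 0.12. On axis A Cpe stood at 582 ± 35.7 CPM, itself within its range of free RNA (148 to 780). The ratio of Cpe on A thus compares levels of which neither is read as expression. On B Cpe stood at 796 ± 92.0 CPM, above that range by less than its SD. The median of the 10 genes was 1.77 on A and 2.14 on B, beside 0.16 and 0.19 for all 10149 genes with at least 10 CPM in n04 or on an axis.

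**Figure D2:**
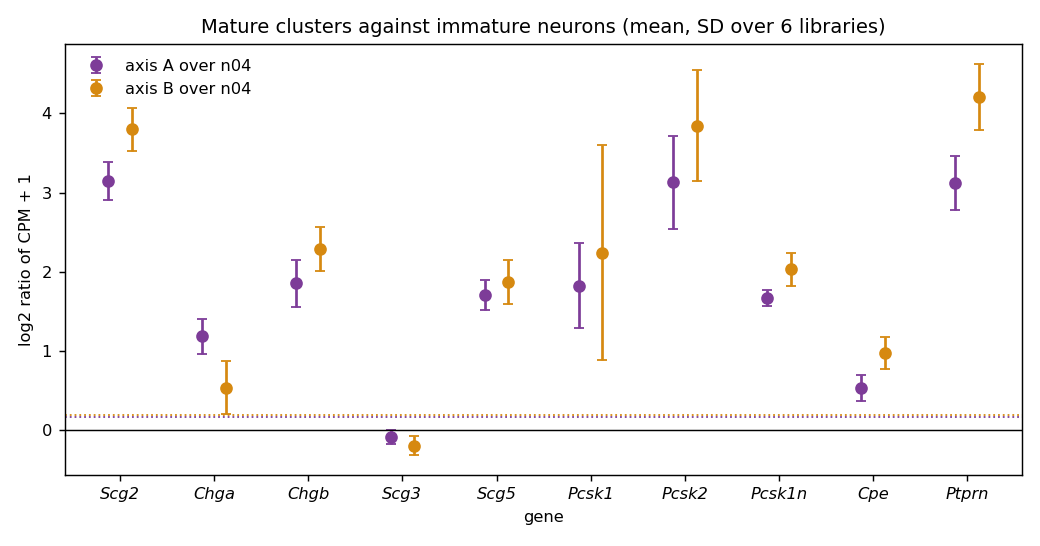
Log2 ratio of CPM + 1 of axis A (purple) and axis B (orange) to immature neurons n04 for each gene, mean and SD over 6 libraries, with the median of all genes dotted. Ptprn, Pcsk2 and Scg2 lie above 3 on both axes, Scg3 lies just below 0, and Chga alone is lower on B than on A by more than its SD.

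The axes differed for some members. From A to B, Ptprn differed by 1.09 ± 0.25 on the log2 scale, Pcsk2 by 0.72 ± 0.19 and Scg2 by 0.66 ± 0.14, each higher on B in 6 of 6 libraries. Chga went the other way, at 93.3 ± 10.2 CPM on A and 59.5 ± 9.24 on B, a difference of -0.65 ± 0.27, and was lower on B in 6 of 6 libraries. These too are a description, because the clusters of the axes were made from the same cells. UMIs were summed over an axis, so large clusters weigh most, on B n07-GC-2 with 3608 cells beside 2085 in n06 and 273 in n09. In n09 Scg2 stood at 63.5 to 257 CPM over the libraries, below its mean of 421 on A. Pcsk2 of n09, at 12.7 to 40.0 CPM, was below its 109 on A. Chga (21.7 to 237 CPM) and Ptprn (88.9 to 395) of n09 lay on both sides of their means on A. On A, n14-GC-7 had mean Scg2 and Pcsk2 above those of B.

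Occlusion was compared with control in each neuronal cluster, to ask whether loss of sensory input changes the set. Scg2 fell in 2 clusters, the granule cells n03-GC-1 and the mitral and tufted cells n17-M/TC-3, and no other member passed the test in any cluster. Of 146 pairs of a member and a cluster with enough counts, these 2 were called by edgeR's quasi-likelihood test at a Benjamini-Hochberg adjusted p under 0.05, both lower, beside 0.116% of all 68721 gene and cluster pairs. Pcsk1 could be tested in 1 cluster only and Pcsk2 in 10. At an unadjusted p under 0.05 there were 21 lower and 5 higher pairs by edgeR, where 5.3% of all pairs passed, and 10 pairs by DESeq2, where 0.274% of the pairs it tested, low counts included, passed.

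In n17 Scg2 stood at 2617 and 2570 CPM in controls, 1023 and 1418 with occlusion and 1662 and 1724 with training. Every occluded and trained library was below both controls, and the occluded ones were the lowest. The log2 fold change of occlusion was -1.20 with a standard error of 0.220 (adjusted p = 0.00339, edgeR's quasi-likelihood test, 2 libraries against 2). In this cluster 0.41% of 4389 genes were called lower. In n03 Scg2 stood at 316 and 363 CPM in controls, 185 and 169 in occluded and 280 and 365 in trained libraries, so that the occluded libraries were the lowest and the trained ones overlapped the controls. The log2 fold change was -0.96 with a standard error of 0.161 (adjusted p = 0.00288, edgeR's quasi-likelihood test), in a cluster where 0.0715% of 6995 genes were called lower.

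Both calls have limits. The call in n03 is lost with DESeq2 (adjusted p = 0.496) and without either control library (0.0731 without replicate 1, 0.354 without replicate 2), and the call in n17 without the first occluded library (0.0510) and in cells with at least 1000 UMIs (0.101). The log2 fold change stayed between -1.07 and -0.86 in n03 and between -1.49 and -0.97 in n17. An exact permutation test of 1 value with 2 libraries against 2 cannot go below p = 0.333.

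Other measures moved with Scg2. The summed level of the 5 sensory neuron markers, which these cells are not known to make, was 1859 and 2169 CPM in control n17 and 792 and 747 in occluded n17, and 1316 and 1246 against 851 and 620 in n03. In sensory neurons themselves Scg2 stood at 70.8 ± 40.5 CPM. The mean depth of n17 was 1375 and 1352 UMIs per cell in controls and 2516 and 1679 in occluded libraries, and its mitral and tufted marker sum, with none of the 6 markers at 0, was 6300 and 6705 against 5116 and 5758 CPM. In n03 that sum was 72.0 and 25.05 against 61.2 and 40.3 CPM. The 8 activity genes (Fos, Egr1, Npas4 and others) summed to 247 and 165 CPM in control n17 and 67.1 and 121 in occluded n17, and to 150 and 138 against 160 and 174 in n03. Markers of 4 other cell types were lower in occluded n17 as well, with the ensheathing sum at 3477 and 2705 CPM in controls against 1689 and 2327, the astrocyte sum at 694 and 723 against 400 and 520, the inhibitory sum at 370 and 279 against 188 and 197 and the red blood cell sum at 210 and 1606 against 201 and 111. The microglia, endothelial, oligodendrocyte, mural, mesenchymal and immature sums of n17 overlapped between the groups. In n03 the inhibitory sum, of its own markers, was 988 and 942 against 872 and 752 CPM, the immature sum was 1450 and 1487 against 1686 and 1578, and the oligodendrocyte sum was 1015 and 1090 against 1107 and 1392, each without overlap. Mitochondrial UMIs took 15.1% and 14.4% in control n17 and 12.7% and 9.91% in occluded n17, and 8.78% and 8.59% against 6.98% and 7.62% in n03. The part of depth, mitochondrial share, other cells and activity in the change of Scg2 was not tested. The Scg2 level of red blood cells, microglia and endothelial cells was lower too, at 45.9 and 58.8 CPM in controls and 24.6 and 34.7 in occluded libraries, and with that level subtracted the log2 ratio of mean CPM was -0.96 in n03 and -1.09 in n17, beside -0.94 and -1.09 without subtraction.

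**Figure D3:**
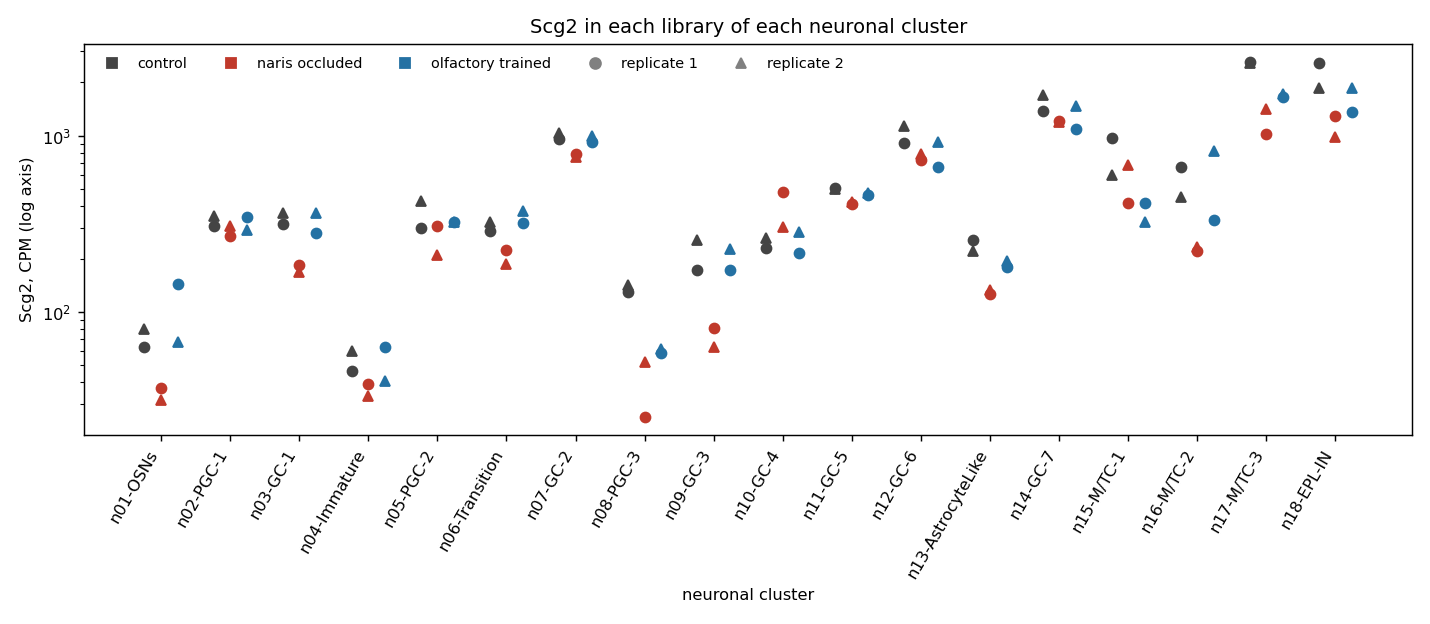
Scg2 in CPM (log axis) in each library of the 18 neuronal clusters, circles for replicate 1 and triangles for replicate 2, in grey for control, red for naris occluded and blue for olfactory trained. The red points lie below both grey points in 15 clusters, among them n01, n04 and n08 with levels of free RNA, and above them in n10-GC-4. Over all genes both occluded libraries were below both controls in 17.3% of pairs.

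Over all neurons Scg2 stood at 524 and 554 CPM in controls, 352 and 292 with occlusion and 419 and 435 with training, where fewer cells of a type and less RNA per cell cannot be told apart. In the 15 clusters with Scg2 above the range of free RNA, its log2 fold change was below 0 in 14, with a median of -0.62, and both occluded libraries were below both controls in 12. Over all genes 34232 of 68721 pairs were below 0, and in 17.3% of pairs both occluded libraries were below both controls. The clusters share the same libraries, so these counts are not independent, and the 15 were chosen by means over all 6 libraries. Counted over all 18 clusters, the log2 fold change of Scg2 was below 0 in 17, but in n01, n04 and n08 the level is that of free RNA, in which Scg2 was lower too. With training, against the same controls, the log2 fold change of Scg2 was below 0 in 15 of 18. Its median was -0.15 with training and -0.64 with occlusion. Of the 262 genes that could be tested in all 18 clusters, 1.91% (5 genes) were lower in at least 17 with occlusion. The others were Dclk1, Gad1, S100a5 and Snap25, of which S100a5, a sensory neuron marker, was lower in 18 of 18 clusters. In n18, where Scg2 was 2573 and 1865 CPM in controls and 1290 and 983 with occlusion, the groups did not overlap (log2 fold change -0.80, SE 0.349, adjusted p = 0.395, edgeR's quasi-likelihood test). The same held in n07-GC-2, with 955 and 1040 against 786 and 755 CPM (-0.44, SE 0.154, adjusted p = 0.999984, edgeR's quasi-likelihood test), on 226 to 720 UMIs per library. In n07 the sensory sum was 1961 and 2021 CPM in controls against 1079 and 895. The immature sum was 496 and 535 against 564 and 688 CPM, and the red blood cell sum 235 and 156 against 251 and 264. Mitochondrial UMIs of n07 took 18.46% and 17.75% against 16.63% and 15.98%. The part of these measures in the value of Scg2 in n07 was not tested. The exception for Scg2 was the granule cells n10-GC-4, with 229 and 264 CPM in controls against 481 and 305 in occluded libraries (log2 fold change 0.65, SE 0.344, adjusted p = 0.867, edgeR's quasi-likelihood test), a value resting on 19 to 35 UMIs per library. Over the alternatives it ran from 0.30 to 1.03. In n10 the astrocyte sum was 136 and 111 against 511 and 209 CPM, the ensheathing sum 543 and 584 against 1337 and 1167, and the mean depth 2454 and 2247 against 1850 and 1794 UMIs per cell, and their part in the value was not tested. The difference between clusters was tested itself in the 12 adult-born clusters. Scg2 was the only member called (F = 3.59, adjusted p = 0.0428, edgeR's quasi-likelihood F test), beside 0.227% of 7478 genes, and Pcsk2 (adjusted p = 0.118) and Ptprn (0.302) followed. That call does not hold without either control or either occluded library (adjusted p = 0.377 to 0.682), without TMM factors (0.137), in the 6 largest clusters (0.876) or in cells with at least 1000 UMIs (0.0747).

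Ptprn, the vesicle membrane protein, was lower in 16 of 18 clusters, and in 14 of the 16 where it was above free RNA, with a median of -0.51 and no call in any. Over all neurons it stood at 222 and 223 CPM in controls, 189 and 154 with occlusion and 235 and 231 with training, so that the occluded libraries were the lowest. Here too fewer cells of a type and less RNA per cell cannot be told apart. In n07-GC-2, on 158 to 393 UMIs per library of these conditions, Ptprn was not lower, at 522 and 500 CPM against 579 and 528 (log2 fold change 0.05). Its log2 fold change was -0.11 in n06, 0.09 in n10 and -0.01 in n12. Of the genes tested in all 18 clusters, 4.2% (11 of 262) were lower in at least 16. In n03 it stood at 167 and 150 CPM in controls and 98.3 and 92.6 in occluded libraries, which do not overlap (log2 fold change -0.77, SE 0.199, adjusted p = 0.244, edgeR's quasi-likelihood test). In n09-GC-3 it stood at 253 and 395 CPM against 180 and 88.9 (-1.33, SE 0.432, adjusted p = 0.366, edgeR's quasi-likelihood test, with -1.84 to -0.83 over the alternatives). Trained libraries of n03, at 131 and 148 CPM, lay between the 2 groups.

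Also among the 6 pairs with the smallest p were 2 more of Scg2. In n13-AstrocyteLike Scg2 stood at 255 and 222 CPM in controls and 127 and 134 in occluded libraries (log2 fold change -0.93, SE 0.258, adjusted p = 0.191, edgeR's quasi-likelihood test). In n09-GC-3 it stood at 173 and 257 against 81.6 and 63.5 CPM (-1.58, SE 0.559, adjusted p = 0.425), on 5 to 13 UMIs per library of these conditions. In neither did the groups overlap. The study set n13 aside as an ambiguous neuronal type. In n13 the sensory sum was 5467 and 6297 CPM in controls against 3447 and 2999, and the inhibitory sum 1091 and 889 against 770 and 583. The mitral and tufted sum was lower as well, and the astrocyte, immature, microglia and red blood cell sums were higher, each without overlap. Mitochondrial UMIs took 31.1% and 32.0% against 28.7% and 27.6%. The part of these measures in the value of Scg2 in n13 was not tested. The immature marker sum of n09 was 387 and 573 CPM in controls and 996 and 762 in occluded libraries. Its sensory sum was 1880 and 1066 against 686 and 571 CPM, the astrocyte sum 493 and 652 against 359 and 381, the oligodendrocyte sum 1107 and 968 against 1534 and 1574, the ensheathing sum 1294 and 1185 against 1698 and 2793 and the endothelial sum 93.3 and 118 against 147 and 279, and the part of these sums in the values of Scg2 and Ptprn there was not tested.

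No pair of the other granins was called. Chgb was lower in 14 of 17 clusters tested, with a median of -0.24. In n13-AstrocyteLike Chgb stood at 106 and 97.2 CPM in controls and 56.4 and 39.4 in occluded libraries (log2 fold change -1.06, SE 0.376, adjusted p = 0.617, edgeR's quasi-likelihood test), on 12 and 5 UMIs in the occluded libraries. The marker sums of n13 given above moved in the same libraries, and their part in this value was not tested. In n17 Chgb stood at 2074 and 2308 CPM in controls, 1391 and 1691 in occluded and 1884 and 2411 in trained libraries, so the occluded libraries were the lowest (log2 fold change -0.61, SE 0.215, adjusted p = 0.240, edgeR's quasi-likelihood test). Chga was higher in 10 of 15 clusters, and in n18 stood at 598 and 1256 CPM in controls against 1511 and 1545 in occluded libraries (0.91, SE 0.336, adjusted p = 0.268), a pair that is called without control replicate 2 (1.496, adjusted p = 0.0309) and stands at 0.39 without control replicate 1 (adjusted p = 0.874). Scg3 was lower in 7 and higher in 7 clusters, Scg5 lower in 11 and higher in 6.

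**Figure D4:**
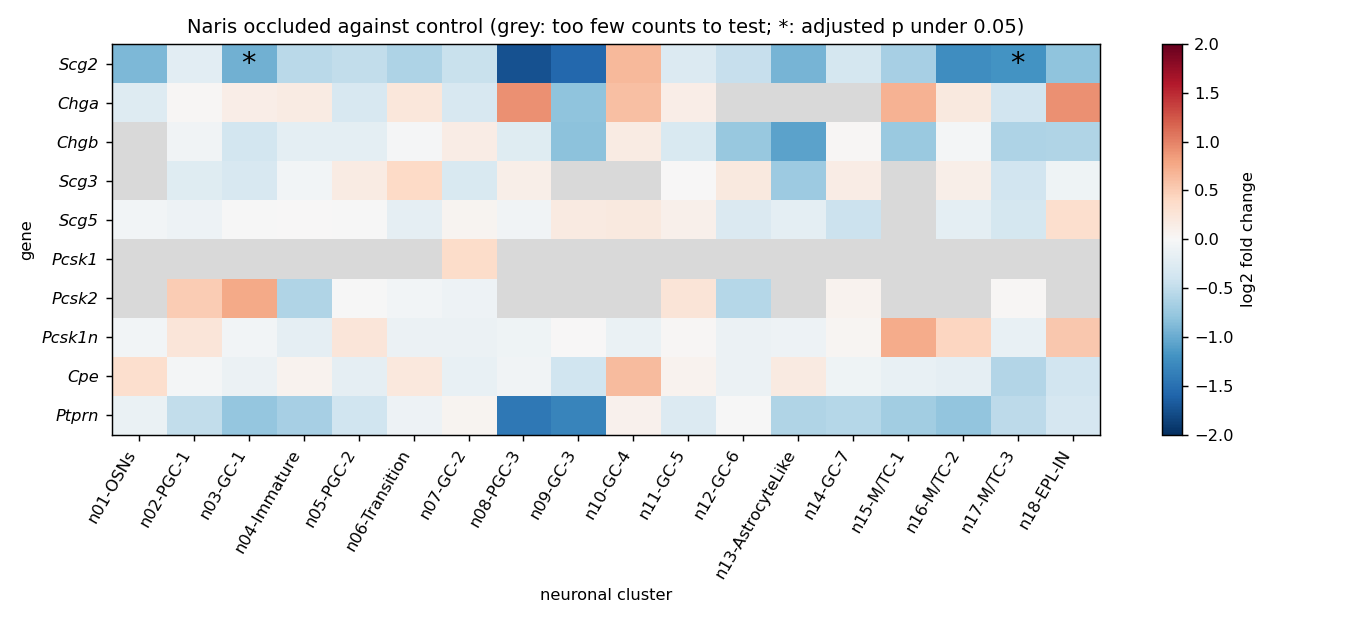
Log2 fold change of naris occluded against control for each gene (rows) in each neuronal cluster (columns), blue for lower and red for higher, grey where counts were too few to test, with an asterisk at adjusted p under 0.05. The 2 asterisks are Scg2 in n03-GC-1 and n17-M/TC-3, the rows of Scg2 and Ptprn are blue in 17 and 16 clusters, and those of Pcsk1n and Cpe are near white in most.

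Of the enzymes and their partners, Cpe, Pcsk1n and Pcsk2 had medians of -0.10, -0.06 and 0.00, and Pcsk1 had 0.36 in n07-GC-2, the 1 cluster in which it was tested. Cpe was lower in 12 and higher in 6 clusters, with 3588 and 4312 CPM in control n17 and 2484 and 3159 in occluded n17 (log2 fold change -0.59, SE 0.219, adjusted p = 0.270, edgeR's quasi-likelihood test). Pcsk1n was lower in 10 and higher in 8, within -0.18 and 0.74. Pcsk2 was lower in 5 and higher in 5, and in n03 stood at 49.2 and 65.7 CPM in controls against 79.0 and 111 in occluded libraries, the reverse of Scg2 there (0.76, SE 0.266, adjusted p = 0.668, edgeR's quasi-likelihood test, with 0.450 to 0.996 over the alternatives). The median over the 146 pairs was -0.12, beside 0.00 over all pairs. Both occluded libraries were below both controls in 53 of the 146 pairs, where 17.3% of all pairs were, and above them in 15, where 17.2% were. Of the 53, 15 were of Scg2, 12 of Ptprn and 9 of Chgb.

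The other genes of the pathway were taken from a list of 23 genes of dense-core vesicles and a list of 22 peptide precursors. Of the 15 vesicle genes with enough counts, only Vgf, which encodes a granin-like peptide precursor, was called. It was called lower in 3 of the list's 133 pairs and higher in none, beside 0.116% of all gene and cluster pairs called. In n18 Vgf stood at 1795 and 1827 CPM in controls, 700 and 562 in occluded and 637 and 991 in trained libraries (log2 fold change -1.35, SE 0.317, adjusted p = 0.0309, edgeR's quasi-likelihood test). In the same libraries of n18 its own inhibitory markers summed to 3860 and 3007 CPM in controls and 2765 and 2036 with occlusion, and the sensory markers to 1855 and 1941 against 590 and 807. The mitral and tufted markers summed to 509 and 723 against 995 and 737 CPM and the astrocyte markers to 209 and 533 against 553 and 632, higher with occlusion, and the part of these sums in the calls of n18 was not tested. In n17 Vgf stood at 98.6 and 88.8 CPM in controls, 26.9 and 20.2 in occluded and 83.1 and 6.60 in trained libraries (-2.03, SE 0.497, adjusted p = 0.0465). In the periglomerular cells n08-PGC-3 Vgf stood at 220 and 264 against 63.8 and 0 CPM, on 5 and 0 UMIs (-3.02, SE 0.565, adjusted p = 0.00828, with -7.30 to -1.93 over the alternatives). In n08 the sensory sum was 1170 and 1351 against 791 and 346 CPM and the astrocyte sum 420 and 373 against 293 and 210. The inhibitory sum of n08 was 1620 and 1570 against 1505 and 1311 CPM. The immature sum was higher, at 770 and 604 against 1007 and 839, and the part of these sums in the call was not tested. In n10-GC-4, where Scg2 was not lower, Vgf stood at 280 and 445 CPM in controls and 886 and 653 in occluded libraries (1.12, SE 0.289, adjusted p = 0.231), a pair that is called without control replicate 2, without occluded replicate 2 and without either trained library. All 3 calls of Vgf are lost without 1 or another library, those in n08 and n18 with DESeq2, and that in n18 without the filter on low counts as well. The median was -0.10 for the vesicle list and -0.01 for the precursor list, beside -0.12 for the members and 0.00 over all pairs.

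**Figure D5:**
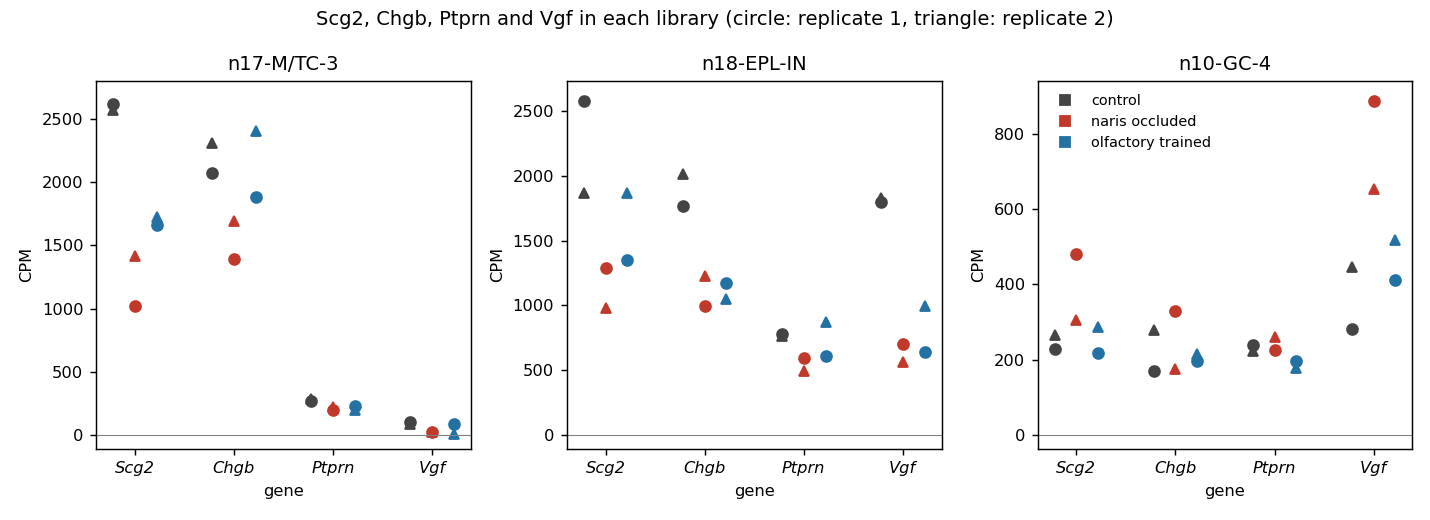
CPM of Scg2, Chgb, Ptprn and Vgf in each library of n17-M/TC-3, n18-EPL-IN and n10-GC-4, circles for replicate 1 and triangles for replicate 2, in grey for control, red for naris occluded and blue for olfactory trained. The red points of Scg2 and Vgf lie below the grey ones in n17 and n18 and above them in n10.

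Of the 17 precursor genes with enough counts, 7 were called with occlusion, in 6 pairs lower and 2 higher of 82, beside 0.116% of all pairs called. Nppa, the natriuretic peptide precursor, fell in n03 beside Scg2, from 250 and 363 CPM to 121 and 158 (log2 fold change -1.12, adjusted p = 0.00288, edgeR's quasi-likelihood test), and in n02-PGC-1 (-0.90). In n17 Crh fell from 284 and 461 CPM to 113 and 106 (-1.84), and Adcyap1 from 222 and 207 to 105 and 70.7 (-1.34). Nmb fell in n16-M/TC-2 (-1.76) and Trh in n18 (-2.54), while Vip rose in n02-PGC-1 (1.16) and Cck in n18 (2.32). In n02 the sensory sum was 1314 and 864 CPM in controls against 653 and 634, and the ensheathing sum 819 and 562 against 1000 and 890. Its mitral and tufted sum and its share of mitochondrial UMIs were lower with occlusion, without overlap. The part of these measures in the values of Nppa and Vip in n02 was not tested. In n16 the mitral and tufted sum, of its own markers, was 2830 and 2079 CPM in controls and 1545 and 1618 with occlusion. Mitochondrial UMIs of n16 took 13.16% and 11.48% against 10.96% and 8.09%. The part of both measures in the value of Nmb was not tested. Cck in n18 stood at 299 and 343 CPM in controls and 2285 and 597 in occluded libraries, and the value is 1.01 without the first of these (adjusted p = 0.542, edgeR's quasi-likelihood test). Among these 8 pairs only that of Crh is kept in every alternative run. Th in n05-PGC-2, a known response to occlusion, stood at 1443 and 1373 CPM in controls and 1092 and 927 in occluded libraries (-0.49, SE 0.223, adjusted p = 0.998, edgeR's quasi-likelihood test), which do not overlap but were not called. Its libraries held 39 or more cells, and the part of depth in the missing call was not tested.

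In nonneuronal cells no member was called with occlusion in 120 pairs over 22 clusters by edgeR's quasi-likelihood test, where 0.0424% of all 110806 pairs were. DESeq2, whose pairs included those with low counts, called no member either. At an unadjusted p under 0.05 edgeR gave 20 lower and 2 higher pairs, where 4.47% of all pairs passed, and DESeq2 7 in all, where 0.206% of its pairs passed. Scg2 was lower in 16 of 16 clusters tested, with a median of -0.81, at levels near that of free RNA. Its smallest p was in Astro3, with 136 and 132 CPM in controls and 24.8 and 49.0 in occluded libraries (log2 fold change -1.97, SE 0.423, adjusted p = 0.0557), on 5 and 7 UMIs in the occluded libraries. Astro1 followed with Scg2 at 41.7 and 58.3 against 23.8 and 23.2 CPM (-1.07, adjusted p = 0.601) and Chgb at 33.0 and 33.0 against 16.5 and 14.3 (-1.11, adjusted p = 0.688). The control levels of Chgb in Astro1 lie within its range of free RNA (19.4 to 40.7 CPM). In red blood cells, microglia and endothelial cells pooled, Chgb was lower too, at 27.8 and 33.1 against 21.8 and 16.7 CPM. Next came Ptprn in OEC4 (-1.22, adjusted p = 0.682), Scg5 in Astro1 (0.58, adjusted p = 0.712) and Scg2 in OEC4 (-0.82, adjusted p = 0.765). Chgb was lower in 12 of 13 clusters, Ptprn in 8 of 9 and Pcsk1n in 17 of 22. The sensory marker sum of Astro3 was 3206 and 3404 CPM in controls and 1925 and 1884 in occluded libraries, and its part in the value of Scg2 was not tested. Cpe, high in these glia, was lower in 11 and higher in 11 clusters, with a median of 0.00.

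Training was compared with control in the same fits, which share the control libraries. The log2 fold change was below 0 in 88 of 146 pairs of a member and a neuronal cluster, beside 97 with occlusion. Over all genes it was below 0 with training in 34282 of 68721 pairs. No member was called in the 146 neuronal pairs by edgeR's quasi-likelihood test, beside 0.0553% of all pairs. DESeq2, whose pairs included those with low counts, called no member either. At an unadjusted p under 0.05 edgeR gave 8 lower and 4 higher pairs, where 5.38% of all pairs passed, and DESeq2 3 in all, where 0.22% of its pairs passed. Pcsk1 in n07-GC-2 had the smallest p. It stood at 11.9 and 12.5 CPM in controls, 21.0 and 6.68 in occluded and 32.8 and 66.5 in trained libraries, so both trained libraries were above all others (log2 fold change 1.92, SE 0.427, adjusted p = 0.0664), on 25 and 37 UMIs. It was called in 6 of the 13 alternatives. With the replicate block, which also stands for sex, it is one of these calls (adjusted p = 0.00186). The next were Chga in n01-OSNs (-2.37, adjusted p = 0.556, but -1.48 without control replicate 1 and -2.81 with a call, adjusted p = 0.0123, without control replicate 2), Scg2 in n17 (-0.62, adjusted p = 0.709), Cpe in n16-M/TC-2 (1.01, adjusted p = 0.938, but 0.23 without trained replicate 2, which stood at 3682 CPM on 27 UMIs against 1064 in replicate 1), and Ptprn in n14-GC-7 (-0.65, adjusted p = 0.851) and n06-Transition (0.54, adjusted p = 0.867). In nonneuronal cells edgeR called no member in 120 pairs, beside 0.116% of all pairs, and DESeq2 called none in its own pairs. At an unadjusted p under 0.05 they gave 12 and 1 pairs, where 5.93% of all pairs passed with edgeR and 0.399% of its pairs with DESeq2. On the lists, training was called for Pam, which amidates peptides, higher in n17 (1.23, adjusted p = 0.0401), for Crh (-2.28) and Npy (-1.11) lower in n17, and for Npy (-4.36) and Trh (-2.12) lower in n18, by edgeR's quasi-likelihood test. These were 1 of 133 vesicle pairs and 4 of 82 precursor pairs, beside 0.0553% of all pairs called. Npy in n18 stood at 12656 and 1142 CPM in controls and 357 and 175 in trained libraries, so the 2 controls differed widely, and its value ran from -5.26 to -1.83 over the alternatives, the weakest without control replicate 1. The sum of the ensheathing markers, of which Npy is 1 of 5, was 3477 and 2705 CPM in controls and 1468 and 1387 in trained libraries of n17, and 13553 and 2284 against 1529 and 641 in n18. In control replicate 1 of n18 Npy itself made up 12656 of the 13553 CPM. The sum is therefore no separate measure of ensheathing RNA. With Npy taken off, the sum was still lower in both trained libraries than in both controls of n17, and overlapped in n18. The part of ensheathing RNA in the values of Npy was not tested. The called pairs of Pam, Npy and Trh are each lost with DESeq2 and without 1 or another library.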

How the data were processed

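Single-cell RNA was measured in 6 libraries, 2 per condition. Per the submitters' processing notes, the authors used Cell Ranger 2.0.0 and mm10 to count the UMIs of each gene, clustered cells with Seurat 2.2.1 after removing doublets, and deposited unnormalized counts, with annotations that give each cell's library, cluster and fraction of mitochondrial UMIs. These were used as deposited, the library column deciding where cell names disagreed. The labels give control mice no manipulation, while the study's text also speaks of the open side, and this was not resolved. If controls were open sides, libraries with the same number would share mice, and the fit with the replicate block, given in the closing section, would be the one to use. Barcodes without a cluster (1123 of 52549) were left out. Counts were summed per cluster and library and scaled to CPM for levels.

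Conditions were compared in each cluster with edgeR 4.0.16 (R 4.3.3): all 6 libraries in 1 fit, TMM factors, filterByExpr, quasi-likelihood test, and Benjamini-Hochberg adjustment over all genes tested. The standard error is the fold change divided by the root of F. Clusters needed 5 cells in every library. DESeq2 1.42.0 was an alternative. Differences of effect between clusters were tested in 1 fit with library, cluster and cluster by condition terms. On simulated counts, where 200 genes had been given a log2 change of 1, the test recovered 47.5% of them in n03 (6676 genes) and 33.0% in n17 (4107 genes). Of the genes it called, 5.94% in n03 and 8.33% in n17 had been given no change. The small clusters were not simulated, and error estimates cover pools, not single mice.

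The text names all 10 members, every called pair or else the 6 with the smallest p, list genes called, 3 most similar genes per member, and Th. Members, lists and tests were chosen with earlier results of these data known. 39 alternatives were set at the start and 2 added after seeing the data (a test over all 18 neuronal clusters and the subtraction of free RNA). Genes lower in at least 17 clusters, Vgf in n10 and, for occlusion, Scg2 in n07, n10 and n18, Chgb in n13 and n17, Cpe in n17, Chga in n18 and Pcsk2 in n03 were named after their values were seen.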

Additional observations from a re-analysis of the deposited data

Results flagged for a closer look

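The effect of occlusion on Scg2 differed between the 12 adult-born clusters by the test of the cluster by occlusion terms (F = 3.59, adjusted p = 0.0428, edgeR's quasi-likelihood F test), from a log2 fold change of -1.74 in n08-PGC-3, where the level is within that of free RNA, or -1.58 in n09-GC-3 on 5 to 13 UMIs per library, to 0.65 in n10-GC-4, and the call is lost without either control or either occluded library. Over all 18 neuronal clusters, a test added after seeing the data, Scg2 gave F = 4.15 (adjusted p = 3.96e-05) and Cpe F = 2.94 (adjusted p = 0.0200), beside 0.476% of 8821 genes called. Cpe ranged from -0.59 in n17-M/TC-3 to 0.63 in n10-GC-4, where it stood at 628 and 709 CPM in controls and 1171 and 897 in occluded libraries. The control levels there lie within the range of free RNA for Cpe (148 to 780 CPM), and the ensheathing sum of n10 was 543 and 584 against 1337 and 1167 CPM and the astrocyte sum 136 and 111 against 511 and 209, whose part in the value was not tested. Clusters n15-M/TC-1 and n16-M/TC-2, with 6 and 8 cells in their smallest library, enter that test.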

How the results depend on the processing

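Of 2 pairs called with occlusion in neurons, 1 was called with DESeq2 (Scg2 in n17) and 1 in cells with at least 1000 UMIs (Scg2 in n03), and 1 to 2 when a library was left out. Training gave 0 called pairs, but 1 (Pcsk1 in n07) without TMM factors, without the filter on low counts and with the replicate block, and 0 to 1 when a library was left out (Pcsk1 in n07, or Chga in n01 without control replicate 2). Occlusion in nonneuronal cells gave 0, but 1 (Scg2 in Astro3, adjusted p = 0.0416) without the filter, and 0 to 1 when a library was left out. Of the members, 1 differed between adult-born clusters, but 0 without TMM factors, in the 6 largest clusters and in cells with at least 1000 UMIs, 0 to 2 when a library was left out (Ptprn in place of Scg2 without occluded replicate 1, Pcsk2 beside Scg2 without either trained library), and 2 over all 18 clusters (Scg2 and Cpe). The replicate block changed no other call of a member, and raised called pairs of the 2 lists from 11 to 16, against 12 without the filter, where Vgf in n18 and Nmb in n16 are no longer called. Of 17 called list pairs, training and EC2 included, 13 are lost with DESeq2, 13 without 1 library, and 2 (Crh in n17, both conditions) are kept in every alternative run. Deviations of control and occluded libraries with the same number correlated at 0.149 in n03 and -0.0141 in n17, where the number also gives the sex. Without the Y-linked genes and Xist the values were 0.0667 and -0.0617. Control and trained libraries with the same number correlated at 0.0955 in n03 and 0.0854 in n17. The number of members highest in n18 was 7, and 6 to 8 under the alternatives. No named pair changed direction in the alternatives run for it. DESeq2 gave no adjusted p for 1 pair. In n18 518 genes had enough counts to be tested, beside 9312 in n04, and recovery in the smaller clusters was not simulated.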

Other observations

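Outside the neurons, 1 list gene was called with occlusion, where 0.0424% of all gene and cluster pairs were called. Npy in the endothelial cluster EC2 rose from 2569 and 2362 CPM in controls to 4755 and 3446 in occluded libraries, with 2509 and 2645 in trained ones (log2 fold change 0.71, SE 0.152, adjusted p = 0.0120, edgeR's quasi-likelihood test). Npy also marks ensheathing cells in the bulb, and the sum of the 5 ensheathing markers, Npy among them, was 6932 and 6189 CPM in controls, 11241 and 10011 in occluded and 5506 and 7432 in trained libraries of EC2. Npy is itself part of that sum, so the sum is no separate measure of ensheathing RNA. With Npy taken off, the sum was still higher in both occluded libraries than in both controls. The part of ensheathing RNA in the value of Npy was not tested. The call is lost with DESeq2 and without either control or the first occluded library.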
